A study of Mus musculus with 12 samples.

Results

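Integrin subunits, laminin chains, nidogens and cadherins were followed through adipogenic induction of 3T3-L1 cells, a mouse embryonic preadipocyte line. They were the protein-coding genes of the count matrix whose symbol has the form Itga or Itgb with a number (or Itgav), Lama, Lamb or Lamc with a number, Nid with a number, or Cdh with a number. The rule found 56 of 54532 genes: 12 integrin alpha subunits, 8 integrin beta subunits, 11 laminin chains, 2 nidogens and 23 cadherins. RNA was sequenced on day 6 in 4 groups of 3 libraries, all from the same line and labelled as wild type. The untreated group is labelled as preadipocytes. The DMI group received 1 uM dexamethasone, 0.5 mM IBMX and 10 ug/ml insulin after confluence, then insulin alone, then serum medium. The remaining groups received DMI with luteolin or DMI with quercetin, and the labels give no dose or timing for either. The protocol text of the labels is the same for every sample, the untreated ones included, so groups rest on the sample names and treatment labels. No label states that the libraries of a group were grown as independent cultures; the p-values then reflect only library-to-library spread, which may be technical.

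Integrins are cell-surface receptors made of an alpha and a beta chain, and the alpha chain largely sets whether a fibronectin, collagen or laminin ligand is bound. Laminins are trimers of an alpha, a beta and a gamma chain that form the sheet of a basement membrane, and nidogens link that sheet to collagen IV. Cadherins are calcium-dependent adhesion proteins, most of which bind like cadherins on the next cell and are anchored to actin through catenins. Fat cells are each wrapped in a basement membrane, whereas preadipocytes grow as fibroblasts on a fibronectin-rich matrix, and a shift from the fibronectin receptor chain Itga5 to the laminin receptor chain Itga6 is known from fat cell cultures.

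Libraries held 14522182 to 19436796 gene counts. Of the 56 members, 32 had enough counts to be tested, and 7, all cadherins, had no count in any library. Levels are given as CPM (counts scaled to library size with TMM) where libraries are compared, and as the FPKM of the deposited table, which is per length, where genes are compared. The summed level of 10 adipocyte markers was 721 to 745 CPM in untreated libraries. It was 20183, 22598 and 6363 CPM in DMI libraries 1, 2 and 3, 12258, 13690.5 and 5804 CPM with luteolin and 7053, 6882 and 3288 CPM with quercetin. The third library of each induced group therefore stood well below its companions. In bulk RNA, fewer adipocytes and less adipocyte RNA per cell cannot be told apart. The summed level of 8 preadipocyte and fibroblast markers was 25929 to 26658 CPM untreated and 10346 to 16554 CPM with DMI. Markers of other cell types were scarce: the 6 endothelial markers summed to at most 4.04 CPM in any library, the 6 epithelial markers to at most 2.19 CPM, the 6 macrophage and leukocyte markers to at most 16.4 CPM and the 6 neural markers to at most 5.96 CPM. The 6 muscle markers reached more than these, up to 27.4 CPM in a DMI library. Tie1, Adgre1, Sox10 and Elavl4 were at 0 in every library.

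The first comparison asked what induction does to these genes. DMI changed 20 of the 32 tested members: 5 rose and 15 fell (edgeR quasi-likelihood test, Benjamini-Hochberg adjusted p under 0.05 over 14855 genes). Across all tested genes 27.1% were called, 14.7% upward and 12.4% downward. The median log2 fold change of the 32 members was -0.56, against -0.04 over all genes. The members that rose included Itga6, Lamb3, Itga7 and Cdh13. DMI and untreated libraries did not overlap for 25 members, 5 of them higher and 20 lower with DMI; among all genes 22.7% were separated upward and 29.4% downward. The 20 calls became 9 without DMI library 1 or without DMI library 2, in fits that called 12.7% and 12.3% of all genes. Without untreated library 1, 2 or 3 there were 13, 13 and 11, against 15.8%, 16.1% and 16.1% of all genes. Without the third library of every induced group, where 33 members could be tested, 21 were called against 52.8% of all genes. By the authors' deposited table, 19 members passed an adjusted p of 0.05 in this comparison, against 21.5% of its genes.

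**Figure D1:**
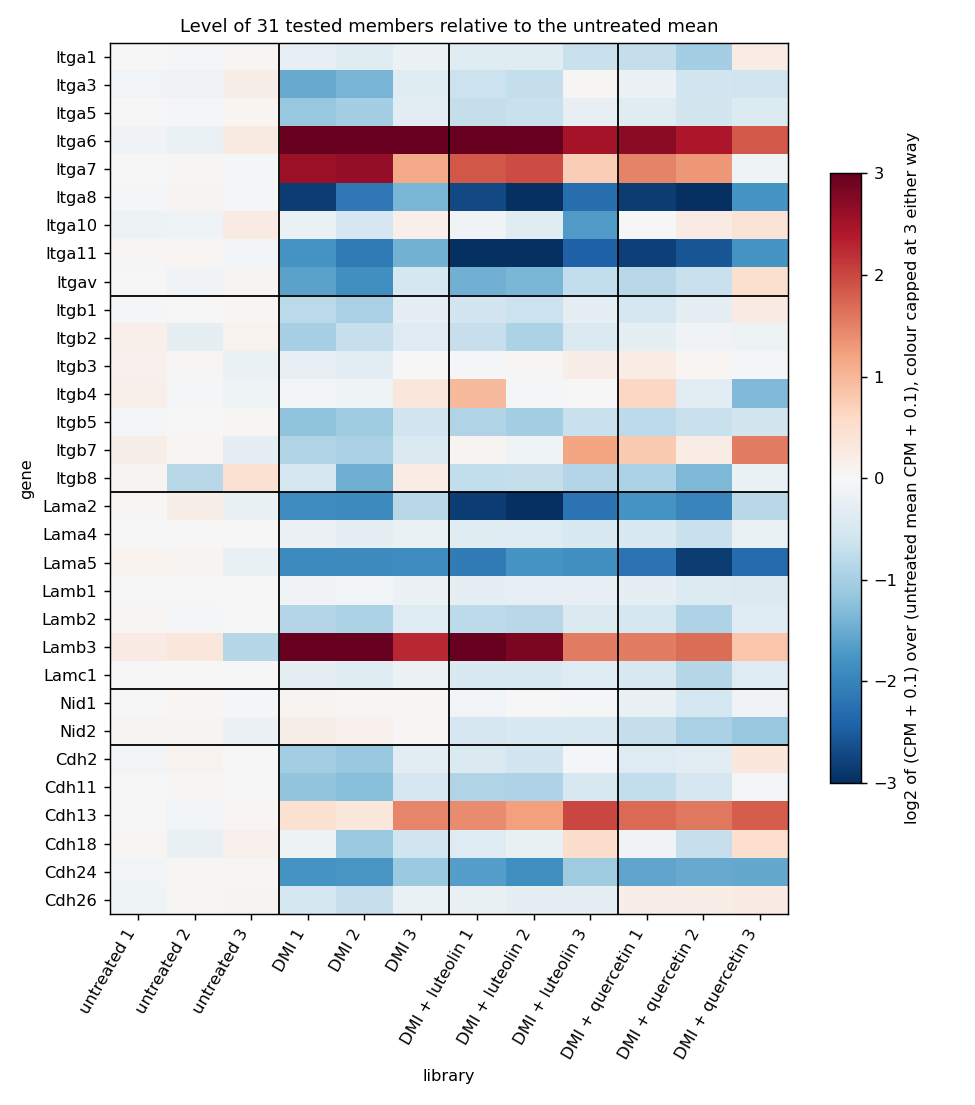
Colours give the log2 ratio of a tested member's CPM (with 0.1 added) to its untreated mean, for 31 genes in rows by family and 12 libraries in columns. Itga6, Itga7 and Lamb3 are red in DMI libraries, most other integrin chains are blue, and the third DMI library is paler than the first and second for most of them.

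Among integrin alpha subunits, DMI raised the laminin receptor chains Itga6 and Itga7 and lowered Itga8, Itga11, Itgav, Itga3 and Itga5, which bind nephronectin, collagen, RGD-containing ligands, laminin and fibronectin. That makes 2 that rose and 5 that fell of 9 tested, where 14.7% of all genes rose and 12.4% fell. Itga6 (chr2:71745616-71858416, plus strand, GRCm38) encodes the alpha chain that pairs with beta1 or beta4. Its level was 14.2, 13.4 and 18.5 CPM in the untreated libraries and 474, 499 and 138 CPM in the DMI libraries. With luteolin it was 228, 259 and 86.4 CPM, and with quercetin 101, 82.7 and 55.2 CPM. Every induced library lay above every untreated library, and the third library was the lowest in each induced group, as it was for the adipocyte markers. Itga6 was 24.1-fold higher with DMI (log2 change 4.59 with an SE of 0.53, adjusted p = 0.000201), the largest rise among the members, and it was called under all 23 alternatives run. With quercetin it was 4.64-fold lower than with DMI alone (log2 change -2.21 with an SE of 0.47, adjusted p = 0.0492). That call ended under 14 of 23 alternatives, with adjusted p up to 0.233, among them leaving out any 1 untreated library, DMI or luteolin library 1 or 2, or quercetin library 2 or 3. With luteolin the log2 difference from DMI was -0.95 with a 95% interval of -1.93 to 0.03 and an adjusted p of 0.82. With the replicate number as a block it was called when only the 6 libraries compared were fitted (adjusted p = 0.000563), and not when all 12 were.

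Itga7 (chr10:128933818-128958282, plus strand), a laminin receptor chain best known from muscle, had 5.47, 5.61 and 5.20 CPM untreated and 32.6, 34.4 and 12.1 CPM with DMI. It had 19.97, 21.2 and 9.12 CPM with luteolin and 15.4, 13.5 and 4.97 CPM with quercetin. DMI and luteolin libraries all lay above the untreated ones, while quercetin library 3 lay at the untreated level. Itga7 was 4.85-fold higher with DMI (log2 change 2.28 with an SE of 0.47, adjusted p = 0.00445), a call kept under all 23 alternatives. Its log2 difference from DMI was -1.22 with quercetin (adjusted p = 0.15). That difference was called under 5 of 23 alternatives, among them the block in all 12 libraries and in 6. With luteolin the log2 difference was -0.65 (adjusted p = 0.938). It was called with the block in 6 libraries (adjusted p = 0.0103) and not in all 12 (adjusted p = 0.474). The 6 muscle markers summed to 1.33 to 2.36 CPM untreated and 8.68 to 27.4 CPM with DMI, with Myod1, Myog and Ckm at 0 everywhere. The 1 muscle marker with enough counts to be tested rose with DMI (log2 change 3.43). The part of muscle markers in the Itga7 result was not tested. Mettl7b, on the opposite strand, shares 9 exon bases with Itga7 and had no count in the untreated libraries and 4.56 CPM on average with DMI.

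Itga8, whose product with beta1 is a receptor for nephronectin, fell 4.07-fold with DMI (log2 change -2.03 with an SE of 0.44, adjusted p = 0.00567). Its libraries had 10.8, 12.05 and 11.1 CPM untreated, 1.51, 2.47 and 4.31 CPM with DMI, 1.63, 0.944 and 2.26 CPM with luteolin and 1.47, 0.960 and 3.25 CPM with quercetin. All 9 induced libraries lay below the 3 untreated ones. Its ligand gene Npnt moved the other way and was 32.5-fold higher with DMI (adjusted p = 0.000268), at 0.403 CPM untreated and 13.4 CPM with DMI. Npnt was 5.59-fold lower with quercetin than with DMI alone (adjusted p = 0.0484).

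Itga11, a fibrillar collagen receptor chain of fibroblasts, fell 3.40-fold with DMI (log2 change -1.77 with an SE of 0.30, adjusted p = 0.00153). It had 17.2, 17.5 and 15.9 CPM untreated and 4.84, 3.77 and 6.22 CPM with DMI. It had 1.80, 1.53 and 3.06 CPM with luteolin and 2.35, 2.78 and 4.85 CPM with quercetin. The luteolin libraries all lay below the DMI libraries, farther from the untreated level. The luteolin difference was -1.22 on the log2 scale (interval -1.91 to -0.53, unadjusted p = 0.00223, adjusted p = 0.486), which is not a call; with the block in 6 libraries it was one (adjusted p = 0.0138). With quercetin the log2 difference from DMI was -0.58 (interval -1.24 to 0.08).

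Itgav, the chain of the RGD receptors, fell 2.31-fold with DMI (adjusted p = 0.034), from 339.9 ± 21.5 to 147 ± 76.96 CPM (SD, n = 3). Itga5, the fibronectin receptor chain, fell 1.71-fold (adjusted p = 0.0129), from 223 ± 7.27 to 130.2 ± 42.2 CPM. Itga3, another laminin receptor chain, fell 2.00-fold (adjusted p = 0.0268), from 13.6 ± 1.45 to 6.79 ± 3.24 CPM. All 3 calls ended without DMI library 1 or 2, those of Itgav and Itga3 also without any 1 untreated library and that of Itga5 without untreated library 3, with adjusted p up to 0.145 for Itgav, 0.0697 for Itga5 and 0.122 for Itga3 over all alternatives. Itga3 therefore moved opposite to Itga6 and Itga7, although all 3 encode laminin receptor chains. The collagen receptor chains Itga1 and Itga10 were not called: Itga1 had 16.3 ± 0.489 CPM untreated and 13.6 ± 0.868 CPM with DMI, and Itga10 had 1.32 and 1.17 CPM. Itgav with quercetin was spread widely, at 189, 216 and 477 CPM, and library 3 exceeded the untreated ones.

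Per length, the summed FPKM of the 12 alpha chains was 85.2 ± 3.68 untreated and 88.2 ± 6.85 with DMI, but its make-up differed. Itga6 made up 1.94 ± 0.263% of that sum untreated, 45.4 ± 22.7% with DMI, 29.3 ± 13.8% with luteolin and 12.4 ± 4.92% with quercetin. The DMI libraries had shares of 58.0%, 59.0% and 19.1%. Itga5 went from 51.6 ± 0.584% to 30.7 ± 12.8%, and Itgav from 36.1 ± 0.832% to 16.1 ± 9.91%. In DMI libraries 1 and 2 Itga6 was thus the most abundant alpha chain, and in DMI library 3 Itga5 was.

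**Figure D2:**
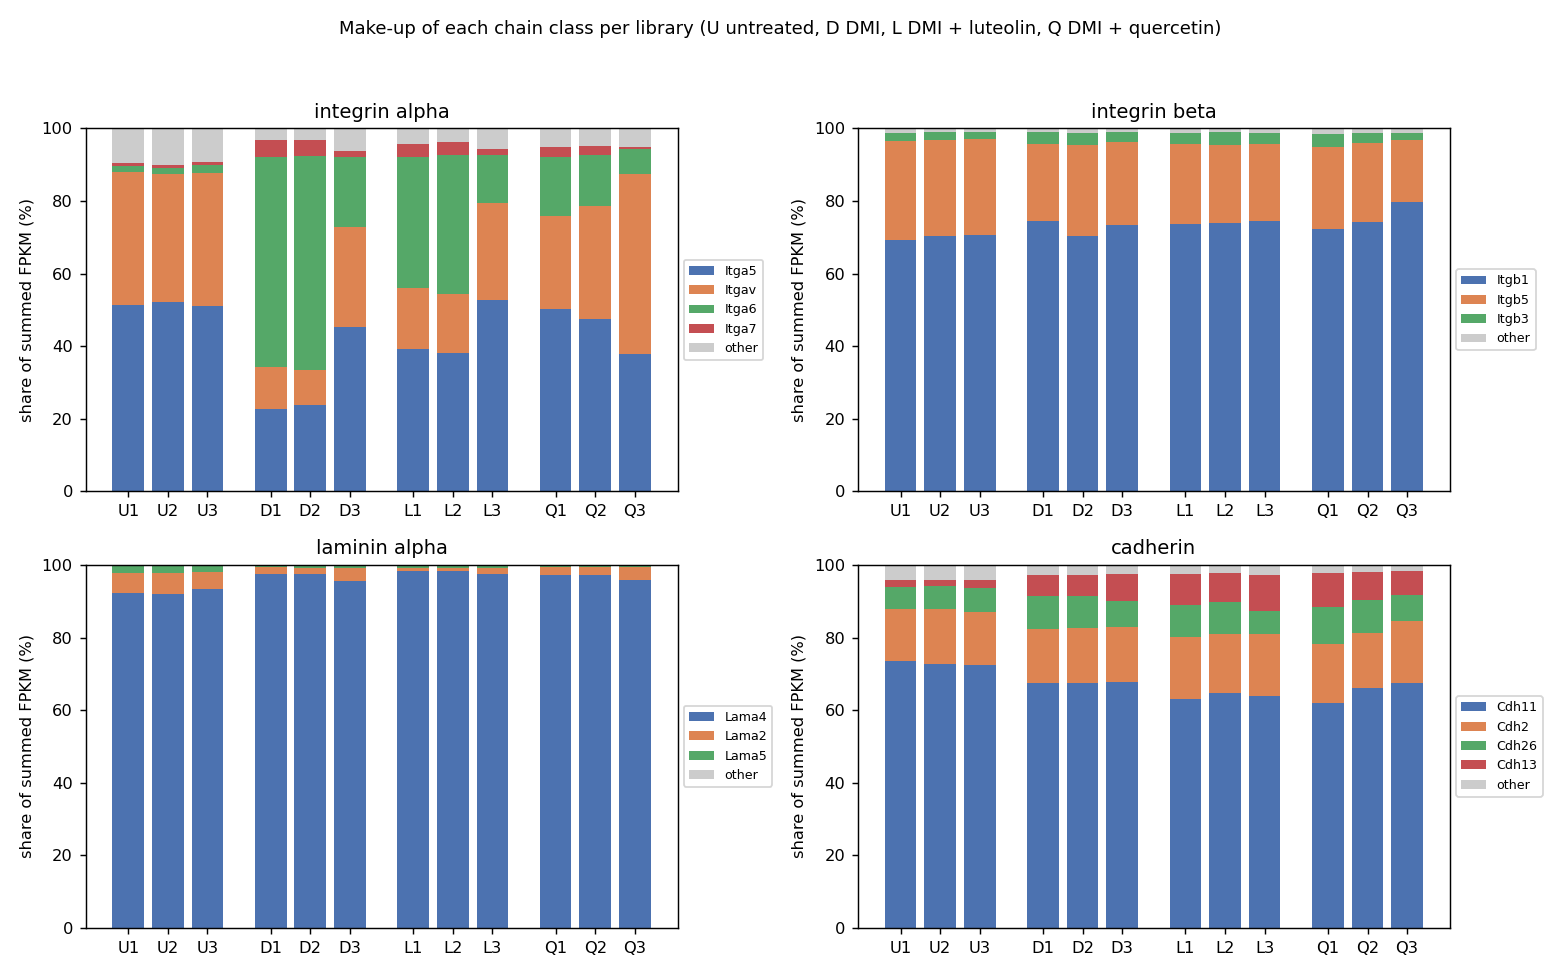
Stacked bars give each gene's percentage of the summed FPKM of its chain class in each of the 12 libraries. The Itga6 share is 58.0%, 59.0% and 19.1% in the DMI libraries, while Itgb1, Lama4 and Cdh11 hold the largest share of their class throughout.

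No integrin beta subunit was called as higher with DMI, and 3 of 7 tested fell, against 14.7% and 12.4% of all genes. Itgb5, the vitronectin receptor partner of the av chain, fell 1.90-fold (log2 change -0.92 with an SE of 0.16, adjusted p = 0.00211). Its level was 329.5, 333 and 345 CPM untreated and 145, 159.6 and 226 CPM with DMI, and the groups did not overlap. With luteolin it was 178, 164 and 211 CPM and with quercetin 195, 212 and 229 CPM. All 9 induced libraries lay below the untreated ones, and the Itgb5 call was kept under all 23 alternatives. Itgb1, the common partner of the collagen, fibronectin and most laminin receptor chains, fell 1.58-fold (adjusted p = 0.04), from 1015 ± 47.03 to 643 ± 168 CPM. The Itgb1 call ended under 10 of 23 alternatives, including scaling by library totals or by size factors (RLE) and leaving out any 1 untreated library, DMI library 1 or 2, or luteolin library 1 or 2, with adjusted p up to 0.173. Itgb2, the leukocyte integrin beta chain, fell 1.60-fold (adjusted p = 0.0279), from 10.2 ± 1.54 to 6.34 ± 1.37 CPM, and its call ended under 7 of 23 alternatives, among them leaving out untreated library 1 or 3 or DMI library 1 or 2 (adjusted p up to 0.131). The macrophage and leukocyte markers summed to 9.61 to 10.9 CPM untreated and 8.43 to 10.1 CPM with DMI.

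Itgb3, which pairs with av, stayed uncalled at 42.7 ± 5.05 CPM untreated and 37.5 ± 4.60 CPM with DMI (log2 interval -0.48 to 0.11). Itgb4, Itgb7 and Itgb8 were near 1 CPM, so differences among them were resolved poorly. Itgb7, which pairs with Itga4 or Itgae in lymphocytes, had 0.503, 0.480 and 0.739 CPM with DMI and 1.86, 1.21 and 3.19 CPM with quercetin, groups that do not overlap. Its log2 difference was 1.83 (interval 0.80 to 2.86, adjusted p = 0.0756), which is not a call. Per length, Itgb1 held 70.2 ± 0.762% of the beta-chain sum untreated and 72.8 ± 2.09% with DMI, while the sum went from 345 ± 11.8 to 217 ± 55.5 FPKM. The order of the beta chains by FPKM, Itgb1 above Itgb5 above Itgb3, was the same in all 4 group means.

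Among the 8 tested laminin chains, Lamb3 was the one that rose most with DMI and 3 fell (Lama5, Lama2 and Lamb2). Over all genes 14.7% rose and 12.4% fell. The most abundant chain of each type was not called. Those abundant chains were Lama4, Lamb1 and Lamc1, which together form the laminin of mesenchymal and endothelial basement membranes. Lama4 had 883 ± 10.4 CPM untreated and 759 ± 24.4 CPM with DMI (log2 interval -0.50 to 0.07). Lamb1 had 1109 ± 1.58 and 1020.5 ± 34.4 CPM (interval -0.36 to 0.12), and Lamc1 1122 ± 8.89 and 928 ± 59.5 CPM (interval -0.57 to 0.03). For all 3 the untreated and DMI libraries did not overlap, with DMI lower, as was so for 29.4% of all genes. Per length, Lama4 held 92.6 ± 0.814% of the alpha-chain sum untreated and 96.9 ± 1.06% with DMI, Lamb1 71.8 ± 0.561% and 78.8 ± 3.60% of the beta-chain sum, and Lamc1 over 99% of the gamma-chain sum in each group mean.

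Lama5 (chr2:180176373-180225859, minus strand), the alpha chain of laminins found widely in adult basement membranes, had the lowest adjusted p of all members. It fell 3.78-fold with DMI (log2 change -1.92 with an SE of 0.19, adjusted p = 0.000131). Its libraries had 20.3, 19.9 and 15.9 CPM untreated, 4.91, 4.93 and 4.99 CPM with DMI, 4.31, 5.43 and 5.19 CPM with luteolin and 3.93, 2.53 and 3.68 CPM with quercetin. The 3 DMI libraries were nearly equal, the third one included, although its adipocyte marker sum was less than that of the first and second. The Lama5 call was kept under all 23 alternatives.

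Lama2, the alpha chain of muscle and nerve laminin, fell 2.73-fold with DMI (log2 change -1.45 with an SE of 0.34, adjusted p = 0.00937). It had 70.1, 77.1 and 58.97 CPM untreated and 18.9, 18.1 and 38.4 CPM with DMI. With luteolin it had 9.61, 8.20 and 14.6 CPM and with quercetin 19.9, 17.2 and 38.6 CPM. The luteolin libraries lay below all DMI, quercetin and untreated libraries. The luteolin difference from DMI was -1.22 on the log2 scale (interval -1.99 to -0.45, unadjusted p = 0.00451, adjusted p = 0.509, or 0.00104 with the block in 6 libraries), and that of quercetin was 0.00 (interval -0.74 to 0.74). The DMI call on Lama2 ended without DMI library 1 or 2, with adjusted p up to 0.052. Lamb2, a beta chain of mature basement membranes, fell 1.65-fold with DMI (adjusted p = 0.0121), from 266 ± 7.74 to 162 ± 35.5 CPM; without DMI library 1 or 2 or untreated library 3 it was not called, with adjusted p up to 0.0667.

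Lamb3 (chr1:193207699-193343878, plus strand) encodes the beta chain of an epithelial laminin that has Lama3 as its alpha chain. Lamb3 had 8, 9 and 3 counts in the untreated libraries and 136, 170 and 38 counts with DMI. In CPM these were 0.497, 0.537 and 0.181 and 8.56, 11.6 and 2.34, with 4.54, 3.48 and 1.40 under luteolin and 1.36, 1.52 and 0.798 under quercetin. All induced libraries lay above the untreated ones, and the DMI and quercetin libraries did not overlap. Lamb3 was 18.2-fold higher with DMI (log2 change 4.19 with an SE of 0.66, adjusted p = 0.00108), kept under all 23 alternatives. With quercetin it was 6.04-fold lower than with DMI, with an adjusted p of 0.0506 that missed the threshold; 8 of 23 alternatives called it. In the authors' deposited table the same comparison had a log2 fold change of -2.60 and an adjusted p of 0.000223. Even with DMI its level per length was low, 1.14 ± 0.715 FPKM beside 103 ± 2.95 FPKM for Lamb1.

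The annotated span of Lamb3 overlaps 2 protein-coding genes on the opposite strand that share no exon base with it, besides non-coding genes with at most 115 counts each over all libraries. G0s2, an inhibitor of fat cell lipolysis, went from 0.385 CPM untreated to 201, 75.9 and 32.2 CPM with DMI, luteolin and quercetin. Hsd11b1, which regenerates active glucocorticoid, had 2.93, 113, 69.1 and 31.6 CPM in the same order. Both genes were ranked like Lamb3 over the 4 group means, and whether reads from them entered the Lamb3 counts was not tested. Counting by strand is not stated in the labels. The epithelial markers summed to 0.302 to 0.477 CPM untreated and 1.35 to 2.19 CPM with DMI; their part in the Lamb3 result was not tested.

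**Figure D3:**
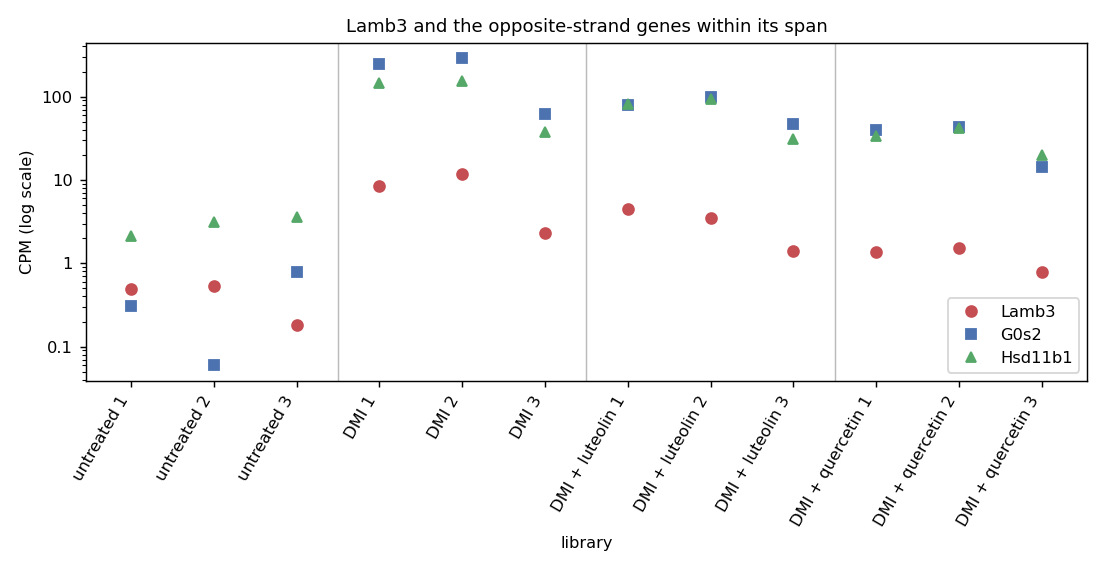
Points give the CPM of Lamb3, G0s2 and Hsd11b1 on a log axis in each of the 12 libraries. All 3 genes are lowest in the untreated libraries, and within each induced group each is lowest in the third library.

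The partner chain Lama3 was not tested, with 3, 2 and 12 counts in the untreated libraries, 3, 2 and 10 with DMI, 4, 4 and 2 with luteolin and 0, 1 and 0 with quercetin.

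Among the nidogens, neither gene was called with DMI, while Nid2 was lower with quercetin than with DMI alone, and its quercetin libraries also lay below the untreated ones. Nid1 and Nid2, which bridge laminin gamma1 chains and collagen IV, are both abundant here. Nid1 had 1359 ± 52.8 CPM untreated and 1405 ± 35.3 CPM with DMI (log2 interval -0.23 to 0.33). Nid2 (chr14:19751265-19811787, plus strand) had 292, 291 and 245 CPM untreated and 312, 303 and 285 CPM with DMI, overlapping groups (interval -0.16 to 0.40). With luteolin it had 196, 201 and 197 CPM and with quercetin 168, 139.8 and 125 CPM. Every luteolin and quercetin library lay below every untreated and DMI library, and every quercetin library below every luteolin library. In DMI library 3 the level was close to that of libraries 1 and 2, unlike Itga6 or Lamb3.

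Nid2 was 2.08-fold lower with quercetin than with DMI (log2 change -1.05 with an SE of 0.13, adjusted p = 0.0246). That call ended under 4 of 23 alternatives, with adjusted p up to 0.19: without DMI library 1 or 2, without quercetin library 2, and when only the 6 libraries compared were fitted. With luteolin Nid2 was 1.52-fold lower (log2 interval -0.88 to -0.32, unadjusted p = 0.00051), but the adjusted p over all genes was 0.364, with a range over alternatives of 0.00156 to 1. DESeq2 called it, as did the fit with the block in 6 libraries (adjusted p = 0.00156), and the authors' deposited table gave it a log2 fold change of -0.59 with an adjusted p of 5.2e-08. Nid1 differed from DMI by -0.32 with quercetin on the log2 scale (interval -0.60 to -0.03, adjusted p = 0.189), and its luteolin interval was -0.38 to 0.18. Per length, Nid2 was 21.4 ± 1.07% of the nidogen sum untreated, 22.3 ± 0.551% with DMI, 16.9 ± 0.182% with luteolin and 14.8 ± 2.66% with quercetin. Rtraf, on the opposite strand, shares 437 exon bases with Nid2, and its means were 103, 92.1, 87.8 and 107 CPM in the same order. Whether Rtraf reads entered the Nid2 counts was not tested.

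**Figure D4:**
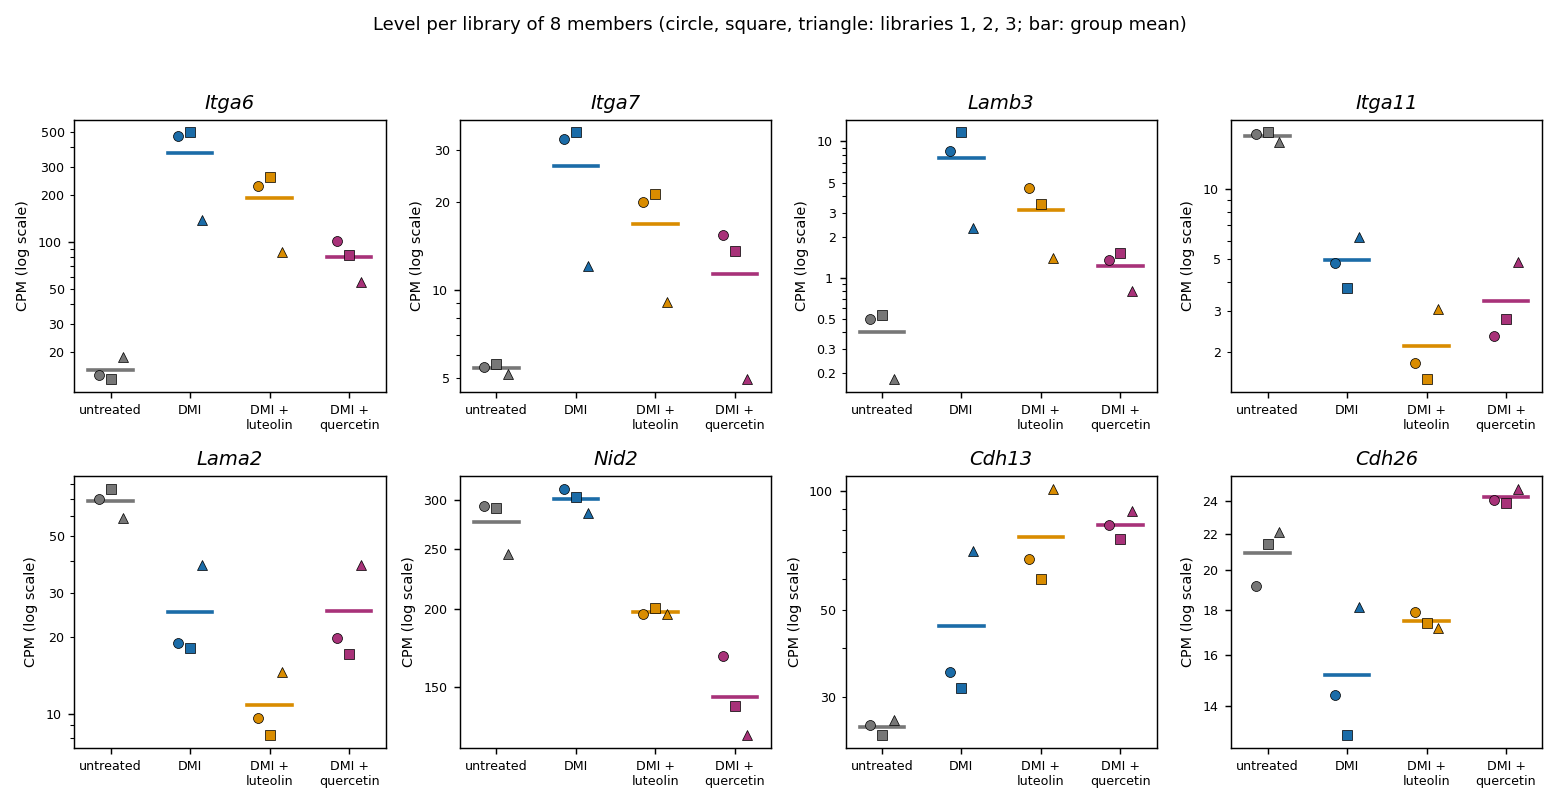
Points give the CPM of 8 members on log axes in each library, with the library number as the symbol and the group mean as a bar. Nid2 is lower with either flavonoid than in untreated or DMI libraries, while the group means of Itga6, Itga7 and Lamb3 are highest with DMI and intermediate with the flavonoids.

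Among cadherins only 6 of 23 were tested. With DMI 1 of these rose and 4 fell, against 14.7% and 12.4% of all genes. Cdh11, the cadherin of mesenchymal cells, was the most abundant and fell 1.92-fold (adjusted p = 0.0105), from 719.6 ± 17.8 to 374 ± 118 CPM. Cdh2, N-cadherin, fell 1.74-fold (adjusted p = 0.0253), from 131 ± 8.20 to 75.7 ± 23.9 CPM. Both calls ended without DMI library 1 or 2, and that of Cdh2 also without any 1 untreated library, with adjusted p up to 0.0575 for Cdh11 and 0.12 for Cdh2. Cdh24, a type II cadherin, fell 2.88-fold (log2 change -1.53 with an SE of 0.23, adjusted p = 0.000942). It had 13.99, 15.3 and 15.2 CPM untreated, 4.22, 4.32 and 6.83 CPM with DMI, 4.66, 4.07 and 7.05 CPM with luteolin and 4.86, 5.16 and 5.03 CPM with quercetin, so every induced library was below every untreated one. Its call was kept under all 23 alternatives. The intervals of its luteolin and quercetin differences from DMI were -0.48 to 0.55 and -0.55 to 0.48 on the log2 scale.

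Cdh26 fell 1.38-fold with DMI (adjusted p = 0.0276) and was 1.60-fold higher with quercetin than with DMI (log2 change 0.67 with an SE of 0.14, adjusted p = 0.0484). In the authors' deposited table its adjusted p was 0.0817 with DMI and 0.146 with quercetin, so it passed 0.05 in neither. Its libraries had 19.2, 21.4 and 22.1 CPM untreated, 14.4, 12.9 and 18.2 CPM with DMI, 17.9, 17.4 and 17.2 CPM with luteolin and 24.1, 23.9 and 24.8 CPM with quercetin. The quercetin libraries were the highest of the 12 and within 1 CPM of each other. The DMI call ended under 7 of 23 alternatives (adjusted p up to 0.193) and the quercetin call under 15 of 23 (adjusted p up to 0.292). Both ended without DMI library 1 or 2, the first also without untreated library 2 or 3, and the second without any 1 untreated library, luteolin library 1 or 2 or quercetin library 2 or 3.

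Cdh13 (chr8:118283733-119324921, plus strand), T-cadherin, is held in the membrane by a lipid anchor without a cytoplasmic tail and binds the fat cell hormone adiponectin. It had 25.6, 24.04 and 26.3 CPM untreated and 34.8, 31.7 and 70.5 CPM with DMI. With luteolin it had 67.5, 59.9 and 102 CPM and with quercetin 81.97, 75.7 and 89.2 CPM. All induced libraries lay above the untreated ones, and the DMI library with the least adipocyte marker RNA, library 3, was the highest of its group. The rise with DMI was 1.80-fold (log2 change 0.85 with an SE of 0.27, adjusted p = 0.0367), and without DMI library 3 or any 1 untreated library it was not called; adjusted p reached 0.137 over the alternatives. Both flavonoid groups were higher than DMI, by 0.74 with luteolin (interval 0.15 to 1.33, adjusted p = 0.718) and 0.85 with quercetin (interval 0.26 to 1.44, adjusted p = 0.115) on the log2 scale, neither of them a call. Without DMI library 3 both were called. With the block in all 12 libraries the quercetin difference was called and the luteolin difference was not (adjusted p = 0.156). With the block in 6 libraries both were called, luteolin at an adjusted p of 0.00214. Cdh18 was below 1.1 CPM in every library and not called.

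Of the 24 members that were not tested, 17 were cadherins, and none had more than 84 counts over the 12 libraries. Cdh23 and Itga2 had 84 each, Cdh17 had 69, Lama3 43 and Itga9 30. E-cadherin (Cdh1) had 10 counts, P-cadherin (Cdh3) 22 and the endothelial cadherin Cdh5 9. Itga4 had 10, the epithelial subunit Itgb6 2, Lama1 5 and Lamc3 9. Cdh7, Cdh8, Cdh9, Cdh12, Cdh15, Cdh16 and Cdh22 had 0. Cdh4, Cdh6, Cdh10, Cdh19 and Cdh20 had 1 to 10. By chromosome, 8 of the 23 cadherins lie on chromosome 8, of which Cdh11 and Cdh13 were tested.

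The second question was what luteolin or quercetin does beside DMI. Both comparisons use the same 3 DMI libraries, so their values are given side by side. With luteolin 0 of 32 members were called by edgeR, against 0.0202% of all genes; 6 members had an unadjusted p under 0.05 (Nid2, Itga11, Lama2, Itgb7, Cdh13 and Lamb3). DESeq2 called 1, against 0.323% of all genes, and limma-voom 0, against 0.0%. With quercetin 3 were called, Nid2 and Itga6 lower and Cdh26 higher, against 1.01% of all genes. An unadjusted p under 0.05 was found for 15 members. The share of all genes under that unadjusted threshold was not counted, so the counts of 6 and 15 have no background beside them. DESeq2 called 6, against 6.63% of all genes, and limma-voom 1, against 0.00673%. Luteolin libraries did not overlap DMI libraries for 8 members, 1 higher and 7 lower, where 6.23% and 5.24% of all genes were so separated. For quercetin it was 4 higher and 7 lower, against 6.68% and 7.35%. The median log2 difference of the 32 members was 0.00 with luteolin and -0.02 with quercetin.

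These counts depended on single libraries. Without DMI library 3 the quercetin count was 14 against a background of 17.4%, and the luteolin count was 2 against 1.70%. Without DMI library 1, DMI library 2 or quercetin library 2 the quercetin count was 0, against 0.0%, 0.0% and 0.00656% of all genes. Without luteolin library 3 it was 5 against 1.79%, and without any 1 untreated library, luteolin library 1 or 2 or quercetin library 3 it was 1 against 0.0263% to 0.138%. Without the third library of every induced group, an alternative chosen with the adipocyte marker levels known, 11 members were called with luteolin (5 higher and 6 lower, against 4.14% and 6.23% of all genes, 10.4% in all) and 20 with quercetin (12 higher and 8 lower, against 17.0% and 16.4%, 33.4% in all), of 33 tested. Under the replicate block 0 members were called with luteolin and 10 with quercetin, against 0.168% and 9.39% of all genes. The 10 were 6 higher and 4 lower, where 3.33% and 6.06% of all genes were called. With the block in only the 6 libraries compared, an alternative added with the data known, 9 members were called with luteolin against 6.58% of all genes: Itga6, Itga7, Itga11, Lama2, Lamb3 and Nid2 lower, and Cdh2, Cdh13 and Itga3 higher. The adjusted p for Lamb3 was 0.0176, for Cdh2 0.00988 and for Itga3 0.0437. By the authors' deposited table, 1 member passed with luteolin (Nid2) and 3 with quercetin (Itga6, Nid2 and Lamb3), against 0.252% and 1.51% of its genes.

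By family, few members were called. Among 6 tested cadherins 0 were called with luteolin and 1 with quercetin (Cdh26), with median log2 differences from DMI of 0.33 and 0.65. Among 8 laminin chains 0 were called with either flavonoid (medians -0.17 and -0.26), and among 7 integrin beta chains likewise 0 (medians 0.18 and 0.28). Among 9 integrin alpha chains 0 were called with luteolin and 1 with quercetin (Itga6), with medians of -0.44 and -0.15. Of 2 nidogens 0 were called with luteolin and 1 with quercetin (Nid2), with medians of -0.35 and -0.69. Over all genes 0.0202% and 1.01% were called, and the medians were -0.02 and 0.02. Both sets of differences rest on the same 3 DMI libraries.

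**Figure D5:**
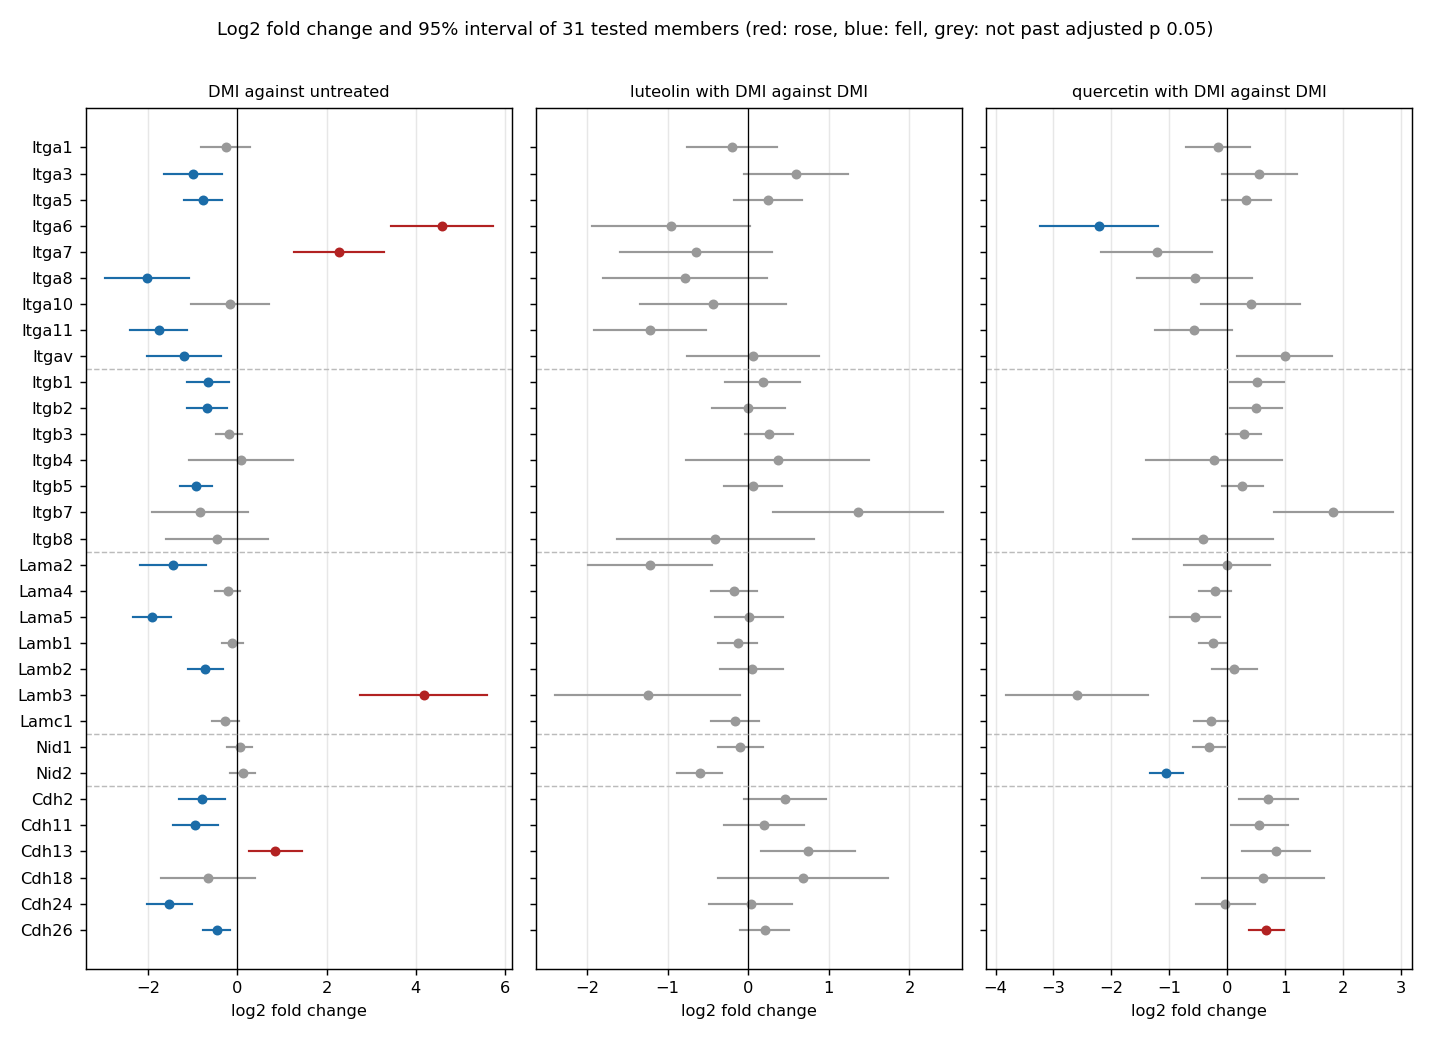
Points are log2 fold changes and lines their 95% intervals from the edgeR fit for 31 tested members in 3 comparisons, grouped by family; the horizontal scale differs between panels. Colour marks 19 of the members drawn for DMI against untreated, 0 for luteolin and 3 for quercetin (Itga6, Nid2 and Cdh26).

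Luteolin is a flavone, and quercetin is a flavonol that carries an additional hydroxyl group on the central ring. The labels give no dose for either, so equal exposure cannot be assumed. In the direct comparison 0 of 32 members were called by edgeR, DESeq2 or limma-voom, which called 0.0%, 0.0214% and 0.0% of all genes; p-values of this 1 pair were adjusted over all genes. Unadjusted p was under 0.05 for 8 members, and their adjusted p was 0.541 to 0.546. The share of all genes under that unadjusted threshold was not counted. Lama2 was 2.33-fold lower with luteolin than with quercetin (log2 interval -1.99 to -0.46), Cdh26 1.38-fold lower (-0.77 to -0.17) and Itgav 1.91-fold lower (-1.76 to -0.12), with Itgb2 1.41-fold lower (-0.94 to -0.05). Itga6 was 2.40-fold higher with luteolin (0.27 to 2.25), Lamb3 2.55-fold (0.11 to 2.59), Lama5 1.47-fold (0.13 to 0.99) and Nid2 1.37-fold (0.17 to 0.73). The groups did not overlap for 4 members higher and 4 lower with luteolin, against 5.20% and 5.07% of all genes. For other members the intervals were wide enough to include sizeable differences in either direction, such as -0.39 to 1.52 for Itga7. Narrow ones were -0.25 to 0.31 for Lama4 and -0.12 to 0.36 for Lamb1. Without the third library of every induced group 9 of 33 members were called, against 13.8% of all genes. By the authors' deposited table, 0 members passed, against 0.0663% of its genes.

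The position of the third libraries was shared by most members that DMI changed. Of the 20 called members, DMI library 3 was the library nearest the untreated side in 18, luteolin library 3 in 16 and quercetin library 3 in 13. The same count was not made over all called genes, so this position is not shown to be particular to these members. The exceptions in the DMI group included Cdh13, for which library 3 was the farthest from the untreated level. Quercetin library 3, with 3288 CPM of adipocyte markers, had the highest Itgb1 of the 12 libraries, 1209 CPM, and an Itgb1 share of 79.6% of the beta-chain FPKM. What set the third libraries apart was not tested.

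Genes that work with these adhesion receptors were counted from lists, to be read against the 14.7% of all tested genes that rose with DMI, the 12.4% that fell and their median log2 fold change of -0.04. With DMI, 3 of 22 tested focal adhesion adaptors and kinases rose and 8 fell (median log2 fold change -0.42), the share that rose being near that background. The LIM-domain adaptor Lims2 rose 17.96-fold and the focal adhesion kinase relative Ptk2b 3.39-fold, while zyxin (Zyx) fell 1.79-fold (adjusted p = 0.00165, 0.00318 and 0.00307). Lims2 was scarce, at 0.203 CPM untreated and 3.77 CPM with DMI. Of 8 tested catenins and nectin junction partners 3 fell and 0 rose (median -0.36): Ctnnb1, the beta-catenin that binds cadherin tails, fell 1.78-fold, Nectin3 1.84-fold and afadin (Afdn) 1.47-fold. With quercetin, plakoglobin (Jup), another cadherin-tail binding catenin, was 1.74-fold lower than with DMI (adjusted p = 0.0484).

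Of 10 tested basement membrane partners and laminin receptors 3 rose and 4 fell (median 0.30). The basement membrane collagen Col15a1 rose 6.45-fold, whereas the heparan sulfate proteoglycan agrin (Agrn) fell 2.89-fold and Col4a5 2.30-fold. Of 9 tested matrix ligands 1 rose and 6 fell (median -0.87), with fibronectin (Fn1) 3.67-fold and Edil3 1.83-fold lower and Npnt higher as given above. Of 7 tested genes of the wider cadherin superfamily 2 rose and 2 fell, with calsyntenin 3 (Clstn3) 53.7-fold higher, Dchs2 2.23-fold lower and Celsr3 3.23-fold higher. Of 3 tested integrin subunits outside the naming rule Itgae, the partner of Itgb7, was 8.17-fold higher (adjusted p = 0.00837). Itgae was scarce too, at 0.345 CPM untreated and 2.87 CPM with DMI. No listed gene in these 6 lists was called with luteolin or between the flavonoids; with quercetin the calls were Jup and Npnt.

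Promoter windows from RefSeq (GRCm38.p6, 250 bases before to 50 after a gene's start) were matched for 34 of the 56 members, 20 of them tested and 13 called with DMI. Of these 13, 1 rose and 12 fell. Windows are shown for the member that rose and those that fell most, as starts of genes that moved in opposite directions. Capitals mark matches to any of 6 short motifs searched on both strands; none of the 6 contains another, and CACGTG and TTGCGCAA read the same on both.

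Lamb3, first of 2 listed starts, chr1:193301744-193302043, plus strand: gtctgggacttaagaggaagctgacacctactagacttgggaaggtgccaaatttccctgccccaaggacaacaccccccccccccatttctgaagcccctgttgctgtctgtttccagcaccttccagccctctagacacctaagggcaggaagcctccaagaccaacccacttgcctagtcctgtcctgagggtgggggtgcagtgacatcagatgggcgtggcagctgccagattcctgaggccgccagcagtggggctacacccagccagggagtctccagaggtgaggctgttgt

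Itga8, chr2:12301895-12302194, minus strand: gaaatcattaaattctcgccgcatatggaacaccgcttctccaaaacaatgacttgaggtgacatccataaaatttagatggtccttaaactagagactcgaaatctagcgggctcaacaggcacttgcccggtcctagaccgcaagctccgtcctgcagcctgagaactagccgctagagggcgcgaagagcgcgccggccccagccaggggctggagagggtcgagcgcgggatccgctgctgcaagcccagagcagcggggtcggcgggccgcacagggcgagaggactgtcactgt

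Lama5, chr2:180225810-180226109, minus strand: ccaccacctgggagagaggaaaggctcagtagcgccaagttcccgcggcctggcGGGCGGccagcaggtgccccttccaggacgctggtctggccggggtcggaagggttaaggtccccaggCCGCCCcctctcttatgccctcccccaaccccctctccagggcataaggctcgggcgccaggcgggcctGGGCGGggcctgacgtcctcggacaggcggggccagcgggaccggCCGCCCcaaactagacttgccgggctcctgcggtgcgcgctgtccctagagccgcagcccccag

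The Lama5 window held 4 matches to GGGCGG or its complement, the core letters of a GC box, and 72.7% G or C bases. The Lamb3 and Itga8 windows held none of the 6 motifs and had 59.3% and 59.0% G or C, against a median of 52.7% over all windows. GGGCGG was present in 35.7% of 32851 windows of the same length and in windows of 16 of the 34 members, and CCAAT in 37.4% and in 11 members. TATAAA was found in 13.6% of all windows and in 0 members, CACGTG in 7.15% and 1 member, AGGTCA in 16.3% and 1 member, and TTGCGCAA in 0.183% and 0 members. Shares over all windows count windows, whereas a member counts if any of its windows matched, so these values are not like for like. A match is a run of letters and not a shown binding site. Itga6, Itga7 and Nid2 are named without a window.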

How the data were processed

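RNA from 12 libraries (4 groups of 3) was prepared with a NEBNext Ultra kit, per the labels. Counts per gene were made by the authors with featureCounts 1.5.0-p3 after base calling with CASAVA 1.8.2, and the build is given as mm9, per the submitters' processing notes. The aligner and its settings are not given in the sources used here, nor is whether counting used strand. Coordinates in the deposited table match GENCODE M21 (GRCm38) start and end for 56 of 56 members and 98.1% of genes, so coordinates are given as GRCm38. FPKM values were computed by the authors and deposited beside the counts. Log2 fold changes and adjusted p-values from the authors' deposited comparison tables are quoted only where named. No library was left out of the main fit.

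Counts were analysed with edgeR 4.0.16 in R 4.3.3: default low-count filter (14855 genes), TMM scaling, one quasi-likelihood fit over all 12 libraries, and Benjamini-Hochberg adjustment with a threshold of 0.05; intervals are 95%. The alternatives were DESeq2 1.42.0, limma-voom (limma 3.58.1), other scalings and filters, only the 6 libraries compared, a replicate block, and each library left out, 23 in all. Depth was 14522182 to 19436796 counts per library. The fit was tested on simulated data. The members and gene lists were chosen with earlier results of these data known. Genes named with values are all members called in any comparison or reaching a mean of 5 CPM in a group, with up to 8 per comparison, by adjusted p, given per library, and up to 3 per gene list by adjusted p with DMI; 1 tested member is counted in the totals but is not reported here by name or drawn. Same-numbered luteolin and DMI libraries deviated together from their group means (r = 0.261, 0.337 and 0.590). By the rule used here (every r over 0.1), values with a replicate block are therefore given beside the main fit, which has no block. The pairing is not in the labels, and luteolin library 2 correlated better with another DMI library. The other comparisons did not meet that rule.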

Additional observations from a re-analysis of the deposited data

How the results depend on the processing

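No result reversed under any of 23 alternatives. Members called with DMI against untreated numbered 20, and 9 to 20 when 1 library was left out, in fits that called 12.3% to 36.6% of all genes. For luteolin the count of 0 became 5 without a low-count filter (1.25% of all genes called), 1 with DESeq2 (0.323%), 11 with library 3 of every induced group left out (10.4%), 9 with a replicate block in only the 6 libraries compared (6.58%), and 0 to 2 with 1 library left out (0.0% to 1.7%). For quercetin the count of 3 became 1 with library totals only (0.397%), with a minimum of 1 CPM in 3 libraries (0.402%), with protein-coding genes only (0.404%) and with limma-voom (0.00673%). It became 0 with only the 6 libraries compared (0.0%), 10 without a low-count filter (5.98%), 6 with DESeq2 (6.63%), 10 with a replicate block (9.39%), 7 with that block in only the 6 libraries compared (5.0%), 20 without the third libraries (33.4%), and 0 to 14 with 1 library left out (0.0% to 17.4%). Between the flavonoids the count of 0 became 4 without a low-count filter (1.55%) and 9 without the third libraries (13.8%), and stayed 0 with any 1 library left out. The cause was not tested. The numbers pair luteolin and DMI libraries only by their data. With the replicate block in all 12 libraries the DMI and luteolin counts stayed within 1.5 times or at 0. Same-numbered untreated and DMI libraries correlated at -0.0144 to 0.0215. Among the 20 members called with DMI, 66 alternative values lost the call and 394 kept it. Depth limits the 24 members with at most 84 counts, and those near 1 CPM, where intervals were wide. With 3 libraries per group no single library could be tested as an outlier.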
